A study of Oryza sativa with 18 samples.

Results

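The segment described here is a run of neighbouring genes on rice chromosome 12, taken as the genes with identifiers from 4352307 to 4352555 that at least 1 probe set matched and no other gene shared. It held 159 of the 22436 probe sets with exactly 1 gene and 126 of the 17905 genes they represent. All 126 genes lie on chromosome 12 and follow each other there in the order of their identifiers. The 113 of them with a tested probe set fall within ranks 463 to 584 of the 799 such genes of that chromosome in the RefSeq gene order, past its middle but not at its end. Another 9 tested genes with identifiers outside that range lie between them. The segment was chosen by measured line differences in log2 signal. Line differences below are therefore a description, with no p printed and counts past the threshold read only beside the share of all genes. Responses within a line and the differences between those responses were tested. A difference between responses is the line difference at 3 h or 6 h minus that at 0 h. It is thus built from the values that led to the choice, and its p is not independent of that choice.

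Leaf sheath of rice was hybridised to 18 Affymetrix arrays in 6 groups of 3 biological replicates. The line 9311 is labelled susceptible and the line NIL-BPH9 resistant to the brown planthopper (BPH), a sap-feeding insect, and no further allele is given for either line. Plants of both lines were 3-week-old seedlings at the four-leaf stage from a controlled growth chamber, and sheaths of each line were taken before infestation (0 h) or once insects had fed for 3 h or 6 h. No insect-free plants of the later times entered the analysis, so the effects of time and of infestation cannot be told apart.

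BPH9 is a rice resistance gene of the long arm of chromosome 12 whose product belongs to the nucleotide-binding, leucine-rich-repeat class of immune receptors. A near-isogenic line is made by crossing a donor repeatedly to a recipient while selecting for the wanted gene, so that it keeps a stretch of donor chromosome around that gene. Array probes are short and match 1 sequence, so the donor's version of a gene can differ from the probe in sequence as well as in expression. A difference in log2 signal between the lines can therefore reflect either, and these cannot be told apart within a single probe set. In whole sheaths, fewer cells that express a gene and less RNA per cell cannot be told apart either.

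Values are log2 MAS5 signals as deposited, and ± after a group mean is the SD of 3 arrays. Differences are on the log2 scale, written as NIL-BPH9 minus 9311 or as later minus 0 h, with a standard error from limma. A gene was represented by its brightest tested probe set, and 113 of the 126 genes had one. A probe set ending in _x_at was used only where the gene had no other tested one. The other 13 genes, among them the expansin gene OsEXPA26, had 15 probe sets with mean log2 signals of 1.27 to 4.36, below the median of every array (5.18 to 5.52), and were not tested. Replicates within a group correlated at r = 0.956 to 0.967 over tested probe sets. Array 3 of the 9311 0 h group stood apart on the fourth principal component (6.88% of the variance), at 74.5 against −46.9 to 31.6 for the others, while the first component (15.4%) separated the lines. Without that array the number of segment genes past the threshold, against all arrays, was 48 against 55, 53 against 45 and 56 against 53 for the lines at 0, 3 and 6 h. It was 26 against 23 and 14 against 15 for the 9311 responses at 3 h and 6 h, 23 against 17 and 46 against 34 for those of NIL-BPH9, and 21 against 17 and 16 against 15 for the differences in response. The check list for the leaf label held in part. The 3 chlorophyll a/b-binding probe sets averaged 14.1 to 15.3, and 2 prolamin probe sets of seed averaged 2.07 and 2.53. The 5 Rubisco small subunit probe sets ranged from 3.60, below every array median, to 14.9 (median 11.5). The 7 glutelin probe sets of seed ranged from 0.594 to 8.90, above every array median (median 3.64).

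The lines differed at many genes of the segment, in both directions and in a similar number before and during infestation. At 0 h, 55 of 113 genes (48.7%) passed an adjusted p of 0.05, 28 higher and 27 lower in NIL-BPH9, where 20.1% of the 16053 genes tested did. At 3 h it was 45 genes (39.8%), 26 higher and 19 lower, where 10% of all genes passed. At 6 h it was 53 genes (46.9%), 26 higher and 27 lower, where 15.7% of all genes passed. With only the 2 groups of the comparison in the fit, the 0 h count was 36. These shares describe a segment that was chosen for line differences.

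A stable part of these differences held at every time. In 31 genes (27.4%, against 1.96% of all genes tested) the line difference passed the threshold in the same direction at 0, 3 and 6 h and the groups of the lines did not overlap at any time, with 16 higher and 15 lower in NIL-BPH9. Averaged over the 3 times, 23 genes (20.4%, against 1.69%) differed by at least 2-fold, 13 higher and 10 lower, and 11 of these (9.73%, against 0.324%) by at least 4-fold, 6 higher and 5 lower. All 9 arrays of one line lay above all 9 of the other in 30 genes (26.5%, against 1.54%). The median size of the mean line difference was 0.34 in the segment and 0.10 over all genes. Of the 23 genes at 2-fold, 15 had line differences within 1 log2 unit of each other at the 3 times.

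Large differences were frequent in the segment, spread along it, and rarer outside. In the 113 tested genes before it and the 113 after it, 2 each (1.77%) reached 2-fold, and 11 of the 677 genes of the rest of the chromosome did. Those after the segment included LOC4352601, 22 places past its end, with a mean line difference of 2.70, and LOC4352609 with −1.13. None of the 9 genes with other identifiers that lie between the members reached 2-fold, and their median size was 0.14. The first member at 2-fold, LOC4352326, was the 7th tested gene of the segment and the last, LOC4352541, was the 105th of 113. In consecutive blocks of 19 genes (18 in the last), 4, 6, 1, 4, 4 and 4 genes reached 2-fold, so the block from LOC4352412 to LOC4352441 held the fewest.

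The genes just inside the identifier range had line differences below 2-fold. The first 4 tested members, LOC4352307, LOC4352308, LOC4352320 and LOC4352321, had mean line differences of 0.00, −0.16, −0.16 and 0.00. The last 4, LOC4352550, LOC4352551, LOC4352553 and LOC4352555, had −0.35, 0.09, 0.02 and 0.01. Outside, the 4 genes before the start lay between −0.28 and 0.12 and the 4 after the end between −0.24 and 0.01, and none of the 16 genes at either end reached 2-fold.

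**Figure D1:**
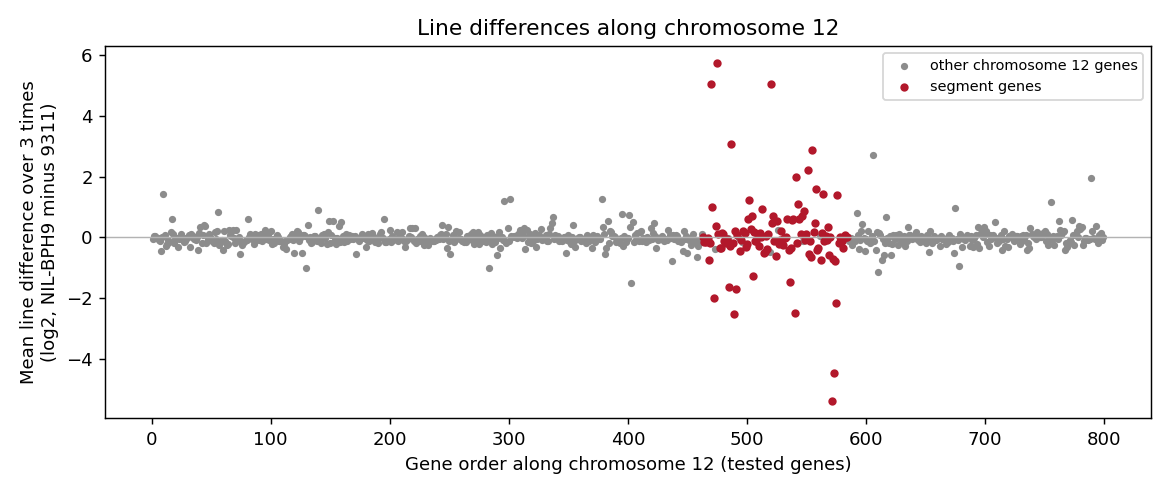
Mean log2 line difference (NIL-BPH9 minus 9311, over 3 times, y axis) of each measured gene of chromosome 12 in gene order (x axis), with segment genes in red and the others in grey. Inside the segment 23 of 113 genes lie at least 1 log2 unit from 0 in either direction, and outside it 11 genes do.

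Only 11 members have a name other than a LOC number, and no product names were used here for the rest, so their roles are not given. PBZ1 encodes a pathogenesis-related protein of the PR10 family, induced by the disease-control chemical probenazole and widely used as a marker of rice defence. In 9311 its log2 signal was 13.50, 13.63 and 13.81 at 0 h, 13.73, 13.68 and 13.77 at 3 h, and 13.77, 13.68 and 13.68 at 6 h. In NIL-BPH9 it was 14.34, 14.28 and 14.23 at 0 h, 14.42, 14.46 and 14.44 at 3 h, and 14.51, 14.54 and 14.45 at 6 h. Every NIL-BPH9 array was above every 9311 array, already before infestation, with line differences of 0.64 ± 0.06, 0.72 ± 0.06 and 0.79 ± 0.06 (SE, n = 3 arrays a group).

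PBZ1 moved little between 0 h and the infested times in either line. In 9311 the differences from 0 h were 0.08 ± 0.06 at 3 h and 0.06 ± 0.06 at 6 h (limma adjusted p = 0.482 and 0.655). In NIL-BPH9 it was 0.16 ± 0.06 at 3 h (limma adjusted p = 0.097) and rose by 0.22 ± 0.06 at 6 h (limma adjusted p = 0.0185). That last call was lost without NIL-BPH9 0 h array 3 (adjusted p = 0.0866), NIL-BPH9 6 h array 1 (0.0536) or array 2 (0.0742) and without the intensity trend (0.0566) in limma. The 3 h difference in 9311 passed only without 9311 0 h array 3 (0.16, limma adjusted p = 0.0277). At 3 h in NIL-BPH9 it passed after quantile normalization (0.00604), with only the groups compared (0.0289), and without 9311 0 h array 1 (0.0415) or array 3 (0.0139). The lines' responses did not differ past the threshold, by 0.08 ± 0.09 at 3 h and 0.16 ± 0.09 at 6 h (limma adjusted p = 0.642 and 0.311).

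TRS130 shares its name with a subunit of the yeast TRAPP complex, which acts in membrane traffic at the Golgi. Its log2 signal in 9311 was 8.98, 8.81 and 8.64 at 0 h, 8.92, 9.40 and 9.05 at 3 h, and 9.19, 8.72 and 8.79 at 6 h. In NIL-BPH9 it was 11.07, 10.94 and 10.93, then 10.92, 10.91 and 11.05, then 10.88, 10.85 and 10.86. The lines did not overlap, and the line difference was 2.17, 1.83 and 1.97 (SE 0.12 each), close to 4-fold at each time. No response passed the threshold: 0.32 ± 0.12 at 3 h and 0.09 ± 0.12 at 6 h in 9311 (limma adjusted p = 0.0965 and 0.759), and −0.02 ± 0.12 and −0.11 ± 0.12 in NIL-BPH9 (0.952 and 0.58). The 3 h value in 9311 passed without 9311 0 h array 1 (0.41, limma adjusted p = 0.0467) or without 9311 3 h array 1 (0.42, 0.0429).

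Of the other named members, COX5c also differed between the lines at every time. COX5c, a subunit of mitochondrial cytochrome c oxidase, averaged 13.19 ± 0.12, 13.20 ± 0.02 and 13.15 ± 0.03 in 9311 at 0, 3 and 6 h and 12.41 ± 0.10, 12.45 ± 0.05 and 12.45 ± 0.05 in NIL-BPH9, a mean line difference of −0.74 with no overlap. ACLA-3, a subunit of ATP-citrate lyase, which makes cytosolic acetyl-CoA, had line differences of −0.08, −0.05 and −0.21 (SE 0.07). OsKCH1, a kinesin with a calponin-homology domain that links microtubules and actin, had −0.42, 0.19 and 0.02 (SE 0.26), and OsABCG50, an ABC transporter of the G family, 0.44, 1.13 and −0.45 (SE 1.06). The 3 tested probe sets of OsCASPL2B1, of the Casparian strip membrane protein-like family, had mean line differences of −0.29, −0.36 and −0.37. OsGK1 had line differences of 0.35, 0.13 and −0.59 (SE 0.20) at 0, 3 and 6 h, a mean of −0.04. Its 6 h responses differed by −0.93 ± 0.28 (limma adjusted p = 0.0503).

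3 genes were at or above the array median on all 9 NIL-BPH9 arrays and on none of the 9311 arrays, where 0.0685% of all genes tested did so, and no member showed the reverse (0.00623%). LOC4352335 read 0.69, 1.28 and 3.88 in 9311 at 0 h, 3.09, 3.04 and 3.45 at 3 h, and 0.00, 1.40 and 0.70 at 6 h. In NIL-BPH9 it read 7.75, 7.89 and 7.52, then 7.67, 7.74 and 7.29, then 7.90, 7.58 and 7.81. The NIL-BPH9 arrays were tightly grouped and the 9311 arrays scattered at low signals, so the mean difference of 5.74 rests on low values that have no detection call here and does not give a fold of RNA.

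LOC4352431 was between 1.07 and 2.67 on the 9311 arrays (median 2.10) and between 6.57 and 7.40 on the NIL-BPH9 arrays (median 7.08), a mean difference of 5.05. LOC4352326 was between 0.66 and 4.55 in 9311 (median 3.45) and between 7.40 and 8.37 in NIL-BPH9 (median 8.08), also 5.05 apart. For none of the 3 genes did a response pass the threshold in either line. LOC4352348 followed with a mean difference of 3.06, from 3.67 to 5.53 in 9311 and from 7.33 to 8.97 in NIL-BPH9. LOC4352512 (1.58), LOC4352520 (1.43), LOC4352406 (1.22) and LOC4352487 (1.10) were also higher in NIL-BPH9 at every time without overlap.

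The opposite pattern was as large. LOC4352535 read 13.83, 13.83 and 13.99 in 9311 at 0 h, 14.10, 14.00 and 14.06 at 3 h, and 13.85, 13.87 and 13.95 at 6 h. The NIL-BPH9 arrays read 9.10, 8.67 and 8.82, then 8.78, 8.67 and 8.60, then 8.42, 7.81 and 8.17. The lines lay 5.01, 5.37 and 5.76 log2 units apart (SE 0.12), and both were above the array median throughout. LOC4352538, 3 members further along, lay between 11.86 and 12.06 in 9311 and between 6.71 and 7.94 in NIL-BPH9, with a mean difference of −4.46.

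The next largest members past the threshold and lower in NIL-BPH9 at every time without overlap were, with COX5c, LOC4352482 (−2.47), LOC4352329 (−1.97), LOC4352385 (−1.68), LOC4352346 (−1.63), LOC4352472 (−1.47), LOC4352411 (−1.27) and LOC4352440 (−0.60). LOC4352352 (−2.52) was also lower on every NIL-BPH9 array but passed the threshold at none of the times. LOC4352329 kept the most even difference of the genes at 2-fold, with −1.91, −1.93 and −2.07 at 0, 3 and 6 h. At the other end, the line difference of LOC4352335 ranged over 2.69 log2 units between times.

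Over the 6 group means, the members whose pattern was most like that of PBZ1 were LOC4352512 (Pearson r = 0.992), TRS130 (0.977), LOC4352431 (0.972) and LOC4352406 (0.965). These are correlations over 6 means that share the line difference, given as a description.

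**Figure D2:**
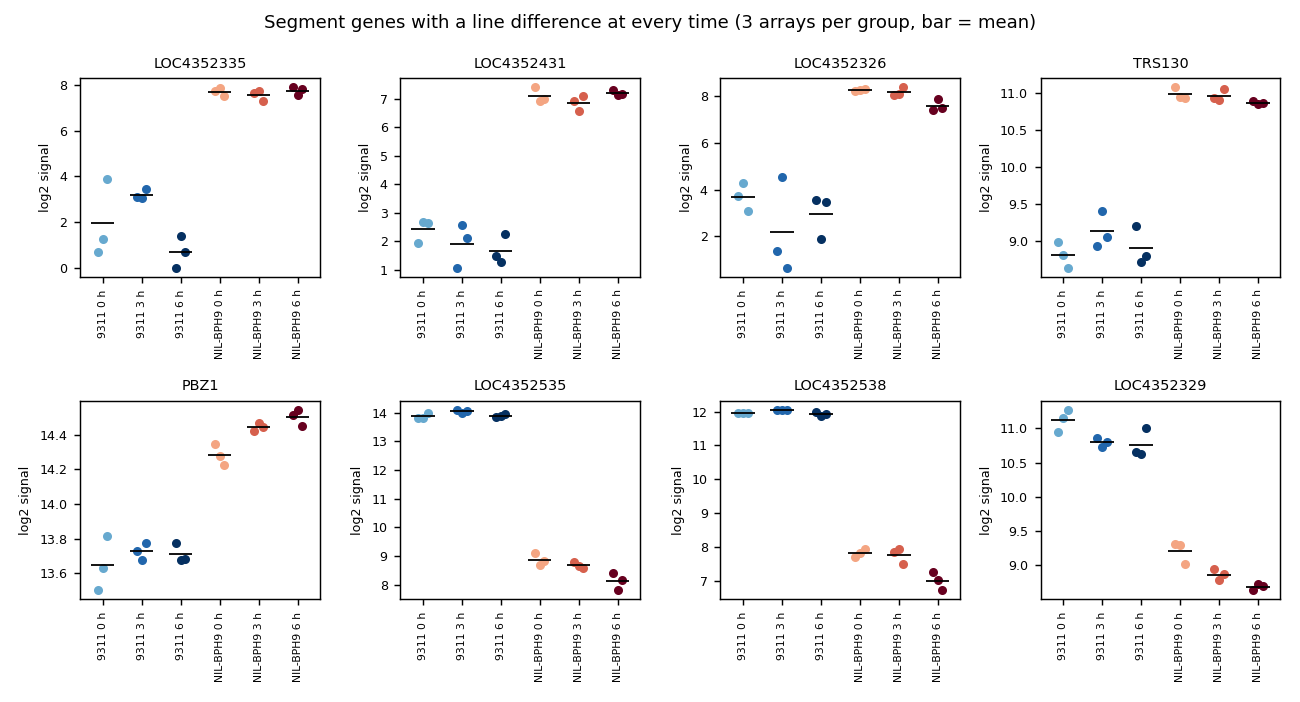
Log2 signal (y axis) of 8 segment genes on each array of the 6 groups (x axis), with points for the 3 arrays and a bar for their mean, on a separate scale per gene. LOC4352335, LOC4352431, LOC4352326, TRS130 and PBZ1 are higher in every NIL-BPH9 array, and LOC4352535, LOC4352538 and LOC4352329 are lower in every one.

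Probe sets for the same gene bear on probe sequence, since each reads another stretch of the transcript or another form of it. In the segment 27 genes had more than 1 probe set, 21 with 2 and 6 with 3, and 20 had at least 2 tested ones, giving 26 pairs. In 15 pairs the mean line differences lay within 0.5 of each other. In 6 pairs, from 5 genes (25.0% of the 20), they lay more than 1 apart, where 2.42% of 2479 such genes of the series did. Each of these 6 pairs held a dim probe set, with a mean level of 3.62 to 5.47 against array medians of 5.18 to 5.52. The shares rest on line differences, which led to the choice of the segment, and are a description. Signs were opposite in 8 pairs, but in 0 of them did both probe sets pass the threshold at all 3 times.

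LOC4352505 showed the widest split. Its mean line difference was 0.03 by Os.15171.1.S1_at, 2.86 by Os.15171.1.S1_s_at and 3.54 by Os.405.1.S1_a_at. The first probe set averaged 5.85 ± 0.66 in 9311 and 5.36 ± 0.75 in NIL-BPH9 at 0 h, near the array median, while the others averaged 7.28 ± 0.08 and 6.59 ± 0.54 in 9311 and 11.13 ± 0.17 and 12.69 ± 0.15 in NIL-BPH9. At 3 h and 6 h the line differences of the latter pair were 3.18 and 1.56 for Os.15171.1.S1_s_at and 1.52 and 3.00 for Os.405.1.S1_a_at.

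In LOC4352350 the probe set Os.50509.1.S1_at gave a mean line difference of −0.17 and Os.50509.1.S2_at, with 9311 means of 1.74 to 3.37 and NIL-BPH9 means of 4.95 to 5.69, gave 2.51. In LOC4352476 the values were 0.59 for Os.28429.1.S1_at and 2.38 for Os.28429.3.S1_x_at. For LOC4352326 they were 5.05 for Os.7337.2.S1_at and 2.50 for Os.7337.3.S1_x_at, and for LOC4352538 −4.46 for Os.50984.1.S1_s_at and −2.26 for Os.52297.1.S1_at. In these last 2 genes both probe sets gave the same direction, and the smaller difference came from the dimmer probe set.

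Probe sets ending in _x_at or _s_at can also bind related transcripts, and LOC4352326 shares its probe set stem with its neighbour LOC4352325, as LOC4352476 does with the more distant member LOC4352347. Their signals are therefore uncertain as to gene. By comparison, LOC4352325 had mean line differences of −0.18 and 0.32 by its tested probe sets and LOC4352347 had −0.27 and 0.28. Whether probe mismatch or RNA level set any one of these splits was not tested.

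**Figure D3:**
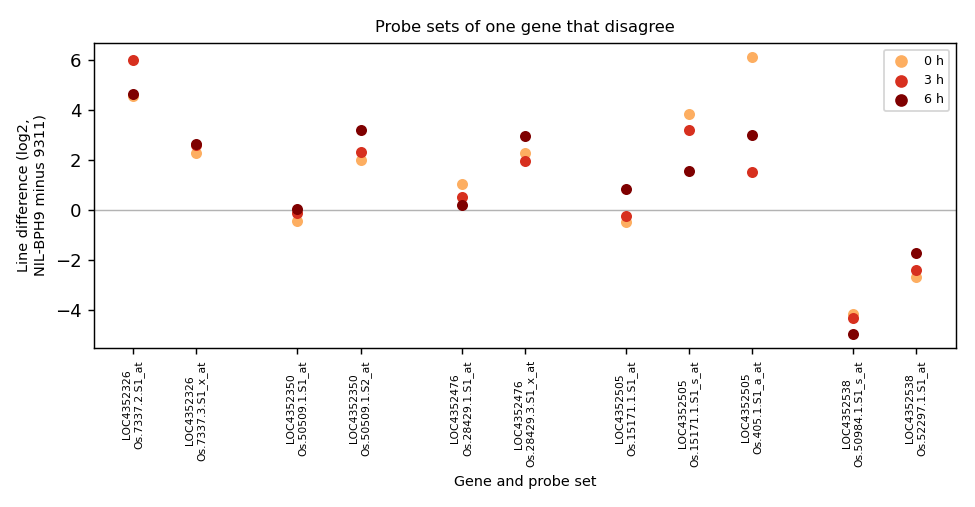
Log2 line difference (NIL-BPH9 minus 9311, y axis) at 0, 3 and 6 h for each tested probe set (x axis) of the 5 genes whose probe sets lay more than 1 apart. LOC4352505 spans the most, with a mean of 0.03 for one probe set and of 2.86 and 3.54 for the others.

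Members of the segment changed between 0 h and the infested times about as often as all genes tested. In 9311 at 3 h, 23 of 113 genes (20.4%) passed the threshold, 8 rising and 15 falling, where 21.6% of all genes tested did. At 6 h it was 15 genes (13.3%), 4 rising and 11 falling, where 11.1% of all genes did. Shares of rises and of falls over all genes are not given here, so these splits are not read as a trait of the segment. The splits also depended on which scaling was used. With each array centred on its median the splits were 8 rising and 9 falling at 3 h, and 4 and 3 at 6 h. After quantile normalization they were 8 rising and 15 falling at 3 h, and 5 and 11 at 6 h. The 6 h count was 5 with only the groups compared, 7 without the intensity trend, and 7, 7 and 9 without 9311 0 h array 2, 9311 6 h array 1 and 9311 6 h array 2.

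In NIL-BPH9, 17 genes (15%) passed at 3 h, 10 rising and 7 falling, where 19.7% of all genes did, and 34 (30.1%) at 6 h, 8 rising and 26 falling, where 25.2% did. With arrays centred, the splits were 9 and 3 at 3 h and 12 and 8 at 6 h, and that centring moved the median over all probe sets by 0.12 in the 6 h response. After quantile normalization the splits were 11 rising and 8 falling at 3 h, and 11 and 22 at 6 h. These splits too have no share by direction over all genes beside them and are not read as a trait of the segment. The 3 h count fell to 10 without the intensity trend, and to 10 and 11 without NIL-BPH9 0 h arrays 2 and 3 and to 11, 10 and 9 without NIL-BPH9 3 h arrays 1, 2 and 3. The 6 h count was 22 without the intensity trend and 17, 21 and 22 without NIL-BPH9 0 h array 3 and NIL-BPH9 6 h arrays 2 and 3. The comparisons of one line share their 0 h arrays.

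LOC4352505 had the largest 3 h fall of the tested members in both lines. By Os.15171.1.S1_s_at it read 7.37, 7.22 and 7.26 in 9311 at 0 h, 2.70, 3.87 and 5.21 at 3 h, and 5.99, 5.58 and 6.47 at 6 h. In NIL-BPH9 it read 10.93, 11.22 and 11.24 at 0 h, 7.39, 7.16 and 6.79 at 3 h, and 7.51, 7.56 and 7.64 at 6 h. The infested arrays lay below the 0 h arrays of their own line, and infested NIL-BPH9 came down to about the level of uninfested 9311. All 9311 readings at 3 h were below their array's median, so the size of that fall rests on low signals.

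By limma it fell by 3.35 ± 0.39 at 3 h in 9311 (adjusted p = 7.05e-06) and by 4.02 ± 0.39 at 3 h and 3.56 ± 0.39 at 6 h in NIL-BPH9 (adjusted p = 6.86e-07 and 3.31e-06). At 6 h in 9311 the difference was −1.27 ± 0.39 (limma adjusted p = 0.0561). The fall was steeper by Os.405.1.S1_a_at, which in NIL-BPH9 read 12.79, 12.75 and 12.52 at 0 h, 6.53, 5.90 and 6.02 at 3 h, and 7.59, 7.74 and 7.96 at 6 h. In 9311 that probe set read 6.56, 7.15 and 6.06, then 4.52, 4.34 and 5.02, then 3.84, 4.98 and 5.47, so of its infested readings only the third at 6 h was above its array's median.

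By this probe set the falls were 6.54 and 4.92 in NIL-BPH9 and 1.96 and 1.83 in 9311 at 3 h and 6 h, all past the threshold, the last of them not with only the groups compared (limma adjusted p = 0.11). The lines' responses differed by −4.58 ± 0.47 at 3 h and −3.09 ± 0.47 at 6 h (limma adjusted p = 3.13e-06 and 0.000551). By Os.15171.1.S1_s_at the 3 h difference was −0.66 ± 0.56 (limma adjusted p = 0.523) and the 6 h difference −2.29 ± 0.56 (0.0184), which was not past the threshold without the intensity trend (0.0587) or over the mean of the gene's probe sets (−1.36, 0.0898). The third probe set passed in no response.

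Several members responded in one line and not, or oppositely, in the other. The lines' responses differed in 17 genes (15%) at 3 h, 13 more positive and 4 more negative in NIL-BPH9, where 15.3% of all genes did. At 6 h they differed in 15 genes (13.3%), 8 more positive and 7 more negative, where 10% of all genes did. Without 9311 0 h array 1 the 6 h count was 27, and with arrays centred it was 9. No share by direction over all genes is given for these splits either.

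LOC4352398 had the clearest difference. In 9311 it read 11.94, 11.90 and 12.07 at 0 h, 10.25, 10.25 and 10.31 at 3 h, and 11.11, 11.16 and 11.13 at 6 h. NIL-BPH9 arrays read 10.73, 10.80 and 10.75, then 10.55, 10.72 and 10.59, then 11.02, 11.07 and 11.02. Uninfested 9311 stood above all other groups, and at 3 h 9311 stood below all of them.

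By limma LOC4352398 fell in 9311 by 1.70 ± 0.06 at 3 h and 0.84 ± 0.06 at 6 h (adjusted p = 2.5e-12 and 2.1e-08). In NIL-BPH9 the difference was −0.14 ± 0.06 at 3 h (limma adjusted p = 0.123) and it rose by 0.27 ± 0.06 at 6 h (0.0031). The responses differed by 1.56 ± 0.08 and 1.11 ± 0.08 (limma adjusted p = 2.85e-09 and 1.36e-07).

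OsMCM7, a subunit of the helicase that unwinds DNA at replication origins, was also highest in uninfested 9311. It read 9.40, 9.22 and 9.13 in 9311 at 0 h, 7.53, 8.03 and 8.02 at 3 h, and 8.72, 8.78 and 8.65 at 6 h. For NIL-BPH9 the readings were 8.11, 8.31 and 8.33, then 8.26, 7.85 and 7.96, then 8.58, 8.31 and 8.74. The 0 h arrays of 9311 were the highest of the gene, and the NIL-BPH9 groups at 0 h and 3 h overlapped.

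The 3 h fall of OsMCM7 in 9311 was 1.39 ± 0.15 (limma adjusted p = 2.24e-06), against −0.23 ± 0.15 in NIL-BPH9 (0.366), and the responses differed by 1.16 ± 0.21 (0.00106). LOC4352405, LOC4352397 and LOC4352342 also fell at 3 h in 9311, by 1.06 ± 0.19, 0.79 ± 0.11 and 0.77 ± 0.09 (limma adjusted p = 0.000755, 5.01e-05 and 4.94e-06). In NIL-BPH9 their 3 h values were 0.14, 0.29 and 0.28 (limma adjusted p = 0.723, 0.0898 and 0.0348). Their responses differed by 1.19 ± 0.27, 1.08 ± 0.16 and 1.05 ± 0.12 (limma adjusted p = 0.00762, 0.000136 and 1.48e-05). LOC4352342 fell at 6 h in both lines, by 0.60 ± 0.09 in 9311 (limma adjusted p = 0.000176) and by 0.27 ± 0.09 in NIL-BPH9 (0.0352). Its 6 h responses did not differ past the threshold (0.32 ± 0.12, limma adjusted p = 0.121).

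GRXC15, a CC-type glutaredoxin of a plant-specific class of thiol enzymes, rose in 9311 at 3 h. It read 11.14, 11.18 and 11.08 there at 0 h, 11.70, 11.66 and 11.77 at 3 h, and 11.39, 11.38 and 11.52 at 6 h. For NIL-BPH9 they were 11.36, 11.38 and 11.35, then 11.31, 11.36 and 11.27, then 11.66, 11.68 and 11.77. All infested 9311 arrays were above the uninfested ones, whereas in NIL-BPH9 only the 6 h arrays were.

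The 3 h rise of GRXC15 in 9311 was 0.58 ± 0.05 (limma adjusted p = 5.02e-07), against −0.05 ± 0.05 in NIL-BPH9 (0.601), and the responses differed by −0.63 ± 0.08 (2.41e-05). At 6 h it rose by 0.30 ± 0.05 in 9311 and 0.33 ± 0.05 in NIL-BPH9 (limma adjusted p = 0.00157 and 0.000291), and the 6 h responses differed by 0.04 ± 0.08 (0.829). The 6 h call in 9311 was lost with only the groups compared in the fit (limma adjusted p = 0.0792). LOC4352490 and LOC4352399 rose at 3 h in 9311 by 0.67 ± 0.13 and 0.66 ± 0.12 (limma adjusted p = 0.000951 and 0.000685), and the responses of LOC4352490 differed by −0.97 ± 0.18 (0.00135). LOC4352457 rose by 0.82 ± 0.20 at 3 h in 9311 (limma adjusted p = 0.00897), a call lost without 9311 3 h array 2 (0.73, 0.0502). For LOC4352399 and LOC4352457 the 3 h responses of the lines did not differ past the threshold. Their rises are therefore not shown to be particular to 9311.

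LOC4352520 rose in NIL-BPH9. It read 7.98, 8.46 and 8.58 in 9311 at 0 h, 8.24, 8.0 and 8.40 at 3 h, and 8.22, 8.03 and 8.59 at 6 h. In NIL-BPH9 it read 8.89, 9.09 and 8.96, then 10.18, 10.27 and 10.21, then 9.81, 9.90 and 10.03. The 9311 groups overlapped each other, and the infested NIL-BPH9 arrays stood above all others.

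Its rise in NIL-BPH9 was 1.24 ± 0.15 at 3 h and 0.93 ± 0.15 at 6 h (limma adjusted p = 9.06e-06 and 0.000241), against −0.12 and −0.06 in 9311 (0.692 and 0.887). The responses differed by 1.37 ± 0.21 and 0.99 ± 0.21 (limma adjusted p = 0.000282 and 0.00796). LOC4352495 also rose in NIL-BPH9, by 0.48 ± 0.09 and 0.59 ± 0.09 (limma adjusted p = 0.000882 and 0.000128), and LOC4352510 by 0.51 ± 0.06 and 0.33 ± 0.06 (7.2e-06 and 0.000878). For neither LOC4352495 nor LOC4352510 is the 9311 response or the difference in response given here.

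LOC4352346 moved in opposite directions in the lines. It read 13.57, 13.64 and 13.84 in 9311 at 0 h, 13.99, 13.94 and 14.06 at 3 h, and 13.86, 13.92 and 14.03 at 6 h. In NIL-BPH9 it read 12.91, 12.75 and 12.73, then 12.13, 12.11 and 12.13, then 11.78, 11.79 and 11.81. The 3 NIL-BPH9 groups were apart from each other, each later one lower.

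By limma it rose in 9311 by 0.32 ± 0.06 at 3 h (adjusted p = 0.002) and fell in NIL-BPH9 by 0.67 ± 0.06 at 3 h and 1.0 ± 0.06 at 6 h (5.12e-07 and 2.07e-09). The responses differed by −0.99 ± 0.09 and −1.26 ± 0.09 (limma adjusted p = 8.61e-07 and 1.08e-07). LOC4352535 fell by 0.74 ± 0.12 at 6 h in NIL-BPH9 (limma adjusted p = 0.000206), against 0.01 ± 0.12 in 9311 (0.977), and the responses differed by −0.75 ± 0.16 (0.01).

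LOC4352538 fell by 0.81 ± 0.12 at 6 h in NIL-BPH9 by its brighter probe set (limma adjusted p = 8.15e-05), with a difference in response of −0.78 ± 0.17 (0.00821). Over the mean of its probe sets these values were −0.28 (0.611) and 0.09 (0.93). Both genes had far lower signal in NIL-BPH9 than in 9311 before infestation. LOC4352488 and LOC4352412 differed in their 6 h responses by 1.06 ± 0.20 and 0.68 ± 0.15 (limma adjusted p = 0.00363 and 0.00834).

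**Figure D4:**
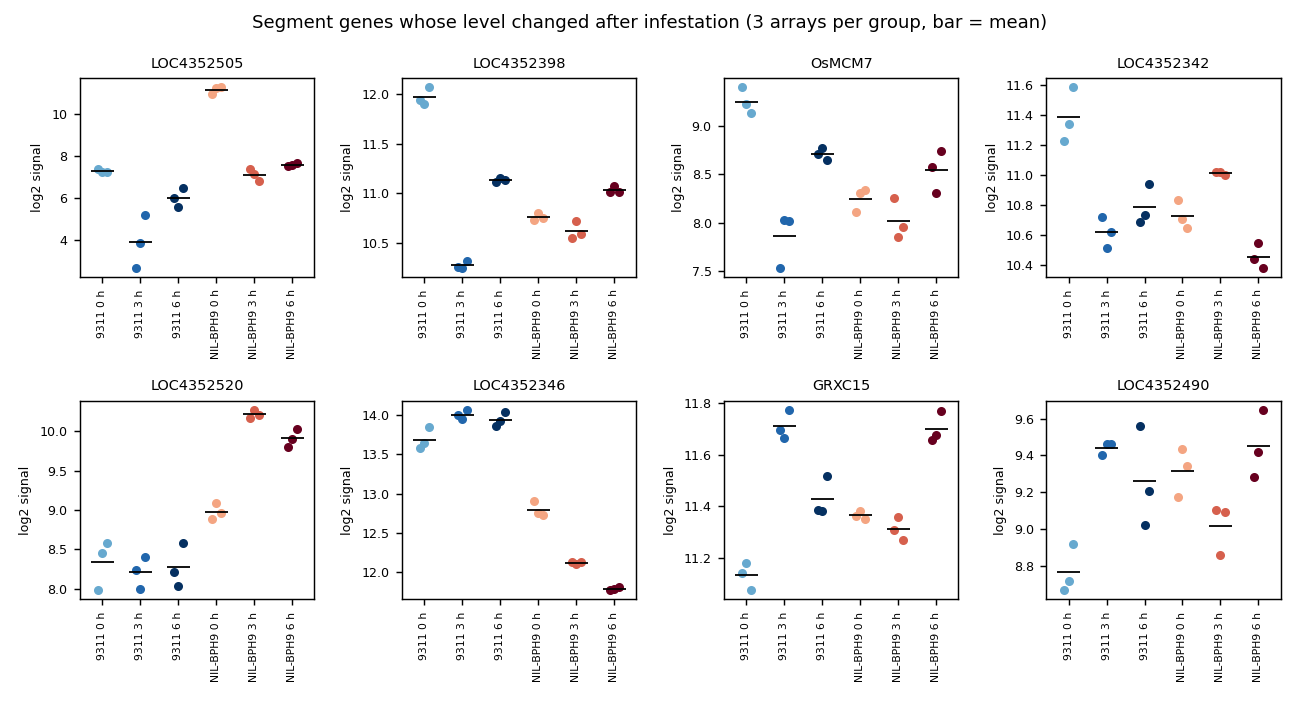
Log2 signal (y axis) of 8 segment genes on each array of the 6 groups (x axis), with points for the 3 arrays and a bar for their mean, on a separate scale per gene, LOC4352505 by Os.15171.1.S1_s_at. LOC4352398, OsMCM7 and LOC4352342 fall at 3 h in 9311, LOC4352520 rises in NIL-BPH9, and LOC4352505 falls in both lines.

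A measure of RNA quality that could move with time is the log2 ratio of 3′ to 5′ control probe sets. It was averaged over 5 probe set pairs for actin, GAPDH and cyclophilin, some of them for the same control. The mean ratio was 2.08 ± 0.16, 2.34 ± 0.18 and 2.39 ± 0.55 in 9311 at 0, 3 and 6 h and 2.16 ± 0.45, 2.15 ± 0.41 and 2.07 ± 0.15 in NIL-BPH9 (SD, n = 3 arrays). The groups overlapped, and its part in the responses was not tested.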

How the data were processed

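The deposited table holds 57381 probe sets (187 of them controls) on 18 arrays as log2 signals. Per the submitters' processing notes the authors made these signals with MAS5, whose version is not given in the labels or files read here, nor are its options. The array-wise 2% trimmed mean of the unlogged signal was 500.076 to 500.088, and 12 values of segment probe sets are listed at 0. Per the labels' protocols, TRIZOL-extracted RNA was amplified with a 3′ IVT kit. A platform annotation table gave the genes, and RefSeq gave names and gene order only. Of the members, 11 have a name other than a LOC number, so lists by product name could not be applied. No sequences or coordinates were used.

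The deposited log2 values were fitted with limma 3.58.1 (R 4.3.3) as 6 group means, with intensity trend in eBayes and Benjamini-Hochberg adjustment over 33094 rice probe sets at or above the array median on at least 3 arrays, at a threshold of 0.05. The code was tested on simulated data. Genes were named by size of the line difference, the response and the difference in response among those past the threshold, by disagreement of probe sets, at the range's ends, and by likeness to PBZ1, and only a selection is printed. The members and lists were chosen with earlier results of these data known. Alternatives covered array scaling, filter, low values, probe set per gene, intensity trend, samples in the fit, a replicate block and each array left out. No hybridisation batch is named in the labels. Replicates are labelled biological; nothing says how many plants each pooled.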

Additional observations from a re-analysis of the deposited data

Results flagged for a closer look

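The changes from 0 h to the infested times differed between 9311 and NIL-BPH9 in these members. The difference itself was tested (limma, adjusted over all probe sets) and is given on the log2 scale as NIL-BPH9 minus 9311. It is built from the line differences that led to the choice of the segment, so the test is not independent of that choice. At 3 h the difference was positive for LOC4352398 (1.56), LOC4352520 (1.37), LOC4352405 (1.19), OsMCM7 (1.16), LOC4352397 (1.08) and LOC4352342 (1.05). It was negative for LOC4352346 (−0.99), LOC4352490 (−0.97), GRXC15 (−0.63) and LOC4352523 (−0.40). At 6 h it was positive for LOC4352398 (1.11), LOC4352488 (1.06), LOC4352520 (0.99), OsMCM7 (0.83), LOC4352412 (0.68) and LOC4352397 (0.63), and negative for LOC4352505 (−2.29), LOC4352346 (−1.26), LOC4352539 (−0.86), LOC4352538 (−0.78), LOC4352535 (−0.75) and LOC4352411 (−0.59). By the probe set Os.405.1.S1_a_at, LOC4352505 differed by −4.58 at 3 h and −3.09 at 6 h.

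Of the 22 results named for the genes' own probe sets, 17 stayed past the threshold in every fit that left out 1 array and 5 did not. LOC4352397 at 6 h was lost without 9311 6 h array 1, NIL-BPH9 0 h array 3 or NIL-BPH9 6 h array 1 (limma adjusted p = 0.0551 to 0.0554). LOC4352523 at 3 h was lost without NIL-BPH9 0 h array 2 or NIL-BPH9 3 h array 3 (0.0554 to 0.0569), and OsMCM7 at 6 h without NIL-BPH9 0 h array 1 or NIL-BPH9 6 h array 3 (0.0517 to 0.0626). LOC4352411 at 6 h was lost on leaving out any one of 12 arrays (0.0513 to 0.113) and LOC4352539 at 6 h any one of 10 (0.0501 to 0.0879). These 5 results were also lost under other settings. With arrays centred on their median the limma adjusted p was 0.0688 for LOC4352397, 0.0598 for OsMCM7, 0.165 for LOC4352411 and 0.0874 for LOC4352539. With only the groups compared it was 0.0534 for LOC4352523, 0.0904 for LOC4352411 and 0.0907 for LOC4352539, and without the intensity trend 0.0588, 0.0881 and 0.0813 in the same order. LOC4352411 was also lost with no filter (0.0624) and with the replicate block (0.0588). Among the 17, LOC4352505 at 6 h was lost without the intensity trend (limma adjusted p = 0.0587) and over the mean of its probe sets (0.0898). LOC4352538 at 6 h was lost over the mean of its probe sets, with the sign changed (0.0930, limma adjusted p = 0.93).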

How the results depend on the processing

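Counts below are segment genes, then segment probe sets, past the threshold. Leaving out 1 array at a time gave, for the line difference, 45 to 55 genes and 49 to 62 probe sets at 0 h, 41 to 53 and 43 to 55 at 3 h, and 46 to 56 and 51 to 63 at 6 h. For the responses it gave 18 to 26 and 21 to 30 (9311, 3 h), 7 to 16 and 8 to 18 (9311, 6 h), 9 to 23 and 12 to 27 (NIL-BPH9, 3 h), and 17 to 46 and 21 to 53 (NIL-BPH9, 6 h). For the difference between responses it gave 14 to 21 and 16 to 23 at 3 h, and 12 to 27 and 15 to 31 at 6 h. Centring each array on its median gave 9 and 11 for the difference between responses at 6 h, 7 and 10 for 9311 at 6 h, and 20 and 21 for NIL-BPH9 at 6 h. With only the groups compared, the counts were 36 and 38 for the lines at 0 h and 5 and 5 for 9311 at 6 h. Without the intensity trend they were 10 and 13 for NIL-BPH9 at 3 h, 7 and 9 for 9311 at 6 h, and 22 genes for NIL-BPH9 at 6 h. The causes were not tested. Every other alternative run kept these counts within 1.5 times.

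Replicate numbers are shared across groups, and the labels do not say what a shared number means. Deviations from the group means correlated at −0.107 to 0.0662 over 45 pairs of the same number, against −0.0852 to 0.0937 over 90 pairs of different number. These values cannot show whether arrays of the same number were handled together. With the replicate number as a block the gene counts were 51, 45 and 52 for the lines, 22 and 13 for 9311, 14 and 32 for NIL-BPH9, and 17 and 15 for the difference between responses. With the same block the probe set counts stayed within 1.5 times too. Of the 2316 alternative values for 86 named gene results, 2124 kept their call or stayed without one, and 184 lost it with the same sign. In 1 the sign changed and the call was lost: LOC4352538 in the 6 h difference between responses, 0.0930 over the mean of its probe sets (limma adjusted p = 0.93). The remaining values gained a call, all in PBZ1 or TRS130. A gain was possible only there, since the other results were entered because they had passed the threshold. Low signals limit the size of line differences where one line lies below the array median, as in LOC4352335, LOC4352431 and LOC4352326.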
